A study of Homo sapiens with 48 samples.

Results

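A group of 73 genes, out of 58870 counted, was higher in each of 3 uveal melanoma cell lines after 24 h with FHT-1015, with smaller differences after 4 h. FHT-1015 is a small molecule that inhibits SMARCA4 and SMARCA2, the ATPases of the BAF chromatin remodelling complexes. The 73 were chosen on reads per gene scaled to library size as CPM, counts per 1e6 reads in genes. A member had a log2 ratio of mean CPM, FHT-1015 over DMSO with 0.5 CPM added to each, of at least 1.58 at 24 h in each line, and every FHT-1015 replicate above every DMSO replicate in each line. The same ratio had to be above -0.58 in 92-1 at 4 h. There were 78 genes that met the 24 h conditions, 3 of which fell short at 4 h (SCN9A, NDRG1 and ENSG00000286190, at -0.92, -0.75 and -1.04), and 2 further genes were set aside by name. Of the 73, 65 code for proteins and 8 are noncoding.

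RNA sequencing was done on 48 samples in 16 groups of 3, named in the titles as biological replicates. Lines 92-1, MEL202 and MP41, all labelled as uveal melanoma with wild-type genotype, received FHT-1015 or DMSO for 4 or 24 h. In 92-1 alone, IDE196, an inhibitor of protein kinase C, was given for the same times beside a separate set of DMSO samples. Doses are not given in the labels, and each line stands for 1 tumour's descendants in culture, so differences between lines are differences between those cultures. The labels do not say whether replicates were separate cultures. A p-value here judges a difference of group means against a spread estimated from these samples, and that spread may not be the one between separate cultures.

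BAF complexes slide and evict nucleosomes and so keep regulatory DNA open, and in cells of the melanocyte lineage they work with the transcription factors SOX10 and MITF. Loss of BAF activity is best known for lowering genes, since open enhancers close. Genes that are higher after BAF inhibition are therefore the less described side of such an experiment. Uveal melanoma is usually driven by an activated Gq-family G protein that signals through protein kinase C, which is the target of IDE196.

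FREM2 stands for the group here (ENSG00000150893.11, chromosome 13, 38687129 to 38887131, plus strand, GRCh38), an extracellular matrix protein of the basement membrane that forms a complex with FRAS1 and FREM1 and is altered in Fraser syndrome. The 250 bases before its RefSeq start are shown because the results open with this gene, with the letters CCAAT, read on either strand, in capitals (GRCh38.p14, chr13:38686827-38687076, plus strand).
FREM2: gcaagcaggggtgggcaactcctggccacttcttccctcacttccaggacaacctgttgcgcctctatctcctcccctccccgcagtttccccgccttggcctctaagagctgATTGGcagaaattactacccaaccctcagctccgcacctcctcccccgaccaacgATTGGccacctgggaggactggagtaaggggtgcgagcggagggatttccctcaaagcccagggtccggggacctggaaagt

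The promoters of the 6 histone genes were searched for elements known from histone genes. The 150 bases before the RefSeq start of 5 of them are shown as examples of the elements they carry. HIST1H2AC, HIST1H2BC and HIST1H2BD lie near each other and near the sixth, HIST1H2BE, on chromosome 6, HIST1H2BJ lies 941242 bases from HIST1H2BE, and HIST2H2BE is on chromosome 1. Capitals mark the TATA box TATAAA, the CCAAT box and the octamer ATTTGCAT, each on either strand. The octamer was added to the search after these sequences had been seen. The stretches are chr6:26124022-26124171 (plus), chr6:26123927-26124076 (minus), chr6:26157971-26158120 (plus), chr6:27132796-27132945 (minus) and chr1:149886683-149886832 (minus), in the order printed.
HIST1H2AC: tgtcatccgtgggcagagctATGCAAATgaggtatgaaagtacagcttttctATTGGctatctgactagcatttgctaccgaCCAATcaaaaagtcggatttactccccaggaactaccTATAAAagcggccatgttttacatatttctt
HIST1H2BC: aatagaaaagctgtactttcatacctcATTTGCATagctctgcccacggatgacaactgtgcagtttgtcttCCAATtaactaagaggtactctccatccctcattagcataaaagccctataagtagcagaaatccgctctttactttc
HIST1H2BD: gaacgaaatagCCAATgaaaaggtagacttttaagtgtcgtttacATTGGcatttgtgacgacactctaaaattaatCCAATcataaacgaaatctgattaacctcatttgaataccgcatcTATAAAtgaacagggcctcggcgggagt
HIST1H2BJ: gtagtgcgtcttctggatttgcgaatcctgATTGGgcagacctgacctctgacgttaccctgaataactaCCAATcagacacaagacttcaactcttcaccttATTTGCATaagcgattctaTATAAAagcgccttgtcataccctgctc
HIST2H2BE: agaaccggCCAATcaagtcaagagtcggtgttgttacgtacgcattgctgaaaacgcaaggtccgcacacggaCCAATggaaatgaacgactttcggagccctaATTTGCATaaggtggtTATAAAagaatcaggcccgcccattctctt

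HIST1H2AC and HIST1H2BC face away from each other across 219 bases, so their printed stretches overlap and hold the same octamer, forward in HIST1H2BC and reversed in HIST1H2AC. The octamer stood 46 and 47 bases before the start in HIST2H2BE and HIST1H2BJ, and 123 and 130 bases before it in HIST1H2BC and HIST1H2AC. TATAAA stood between 28 and 31 bases before the start in HIST1H2AC, HIST1H2BD, HIST1H2BJ and HIST2H2BE. The elements were not in all 6: HIST1H2BD held no octamer, and in HIST1H2BC and HIST1H2BE TATAAA stood 220 and 189 bases before the start. RefSeq promoter windows, from 250 bases before to 50 after a start, were found for 57 of the 73 genes. The octamer was in a window of 5 of these 57 (8.77%), all 5 of them histone genes, against 2.19% of 27305 genes. TATAAA was in 22.8% against 14%, CCAAT in 56.1% against 39.7% and the GC box GGGCGG in 71.9% against 48.3%. Members had more windows per gene (mean 1.82 against 1.29), which raises a share counted per gene. Counted per window, the shares were 4.81% against 1.77%, 13.5% against 11.5%, 43.3% against 34.6% and 54.8% against 45% in the same order. Of letters tied to the lineage factors, CATGTG, an E-box of the MITF type, was in 15.8% against 13.4%, and ACAAAG, a SOX core, in 22.8% against 19%. The palindromic E-box CACGTG, which MITF can also bind, was in 17.5% against 8.77%. Counted per window these shares were 8.65% against 11.1%, 15.4% against 16.1% and 9.62% against 7.26%. In all 13 motifs were searched. Among the others, the TEAD letters GGAATG were in 15.8% against 16.7% (9.62% against 14% of windows), the AP-1 letters TGANTCA in 10.5% against 9.37% (5.77% against 7.71%), the NFI letters TTGGCA in 15.8% against 15% (12.5% of windows in both) and the cAMP response element TGACGTCA in 5.26% against 2.25% (2.88% against 1.85%). Motifs were searched on both strands, CATGTG is also contained in the M-box TCATGTG (5.26% against 3.59%), and a match is a description of letters only.

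Between 11394088 and 32317711 reads fell in genes per library. The labelled cell type was checked on 20 melanocyte lineage genes, whose summed level at 24 h lay between 5639.4 and 26000.2 CPM in every library. With FHT-1015 at 24 h that sum was lower than in DMSO in every line, for example 8041.7 to 8377.9 against 22707.8 to 24585.7 CPM in 92-1. SOX10 fell by 4.69, 5.43 and 4.74 on the log2 scale in 92-1, MEL202 and MP41 (edgeR adjusted p at most 9.17e-08), and MITF fell by 1.65, 1.91 and 2.56. SMARCA4, a target of the drug, rose by 0.25 in 92-1 (adjusted p = 0.0193) and did not pass the test in MEL202 (0.27) or MP41 (-0.26). SMARCA2, its other target, rose by 0.73 in 92-1 (adjusted p = 2.01e-05) and did not pass the test in MEL202 (-0.10) or MP41 (0.03). Among 10 fibroblast markers, the summed level at 24 h was 21.5 to 27.4 CPM against 4.06 to 5.64 in DMSO in 92-1, and 55.3 to 71 against 17.2 to 21.6 in MEL202. In MP41 the ranges overlapped (34.7 to 45.7 against 31.6 to 44.6). The summed level of 10 epithelial markers was lower without overlap in each line, at 26.8 to 28.6 against 50.2 to 58 CPM in 92-1, 23.7 to 29.1 against 79 to 109.9 in MEL202 and 13.2 to 18.2 against 24.8 to 63.5 in MP41. Endothelial marker sums were lower in 92-1 (60.3 to 65.3 against 67.4 to 86.3) and MEL202 (63.3 to 66.5 against 92.1 to 100.1) and overlapped in MP41, and neuron and glia sums were lower in 92-1 (242.0 to 291.8 against 327.2 to 376.2) and overlapped in the other lines. The summed level of 10 immune markers was at most 6.27 CPM in any library. In bulk RNA, fewer cells of a type and less RNA per cell cannot be told apart, and the part of such markers in the results below was not tested.

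At 24 h the size of the difference was similar in order across the lines. The log2 ratios of the 73 had a median of 2.44 in 92-1 (1.60 to 5.45), 2.14 in MEL202 (1.66 to 3.84) and 2.21 in MP41 (1.58 to 3.90). For 42 genes the largest ratio was in 92-1, for 15 in MEL202 and for 16 in MP41. Each gene was chosen on these values, so they are a description. For scale, 29.2% of 15685 genes tested were called higher at 24 h in 92-1 by edgeR at an adjusted p under 0.05, 8.69% of 15913 in MEL202 and 17.4% of 15543 in MP41, and 31.4%, 10.1% and 18.7% were called lower. All drug replicates lay above all DMSO replicates for 35.1%, 28% and 21.4% of genes in the same order. Just inside the threshold, judged by the smallest of the 3 ratios, stood NREP (1.583), THSD7A (1.585) and KLF7 (1.611), and just outside it ADGRL2 (1.577), SGCZ (1.575) and BMF (1.561). Means over the 36 samples of the FHT-1015 experiments ran from 1.03 to 304.4 CPM with a median of 15.9, and 20 genes were under 5 CPM.

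**Figure D1:**
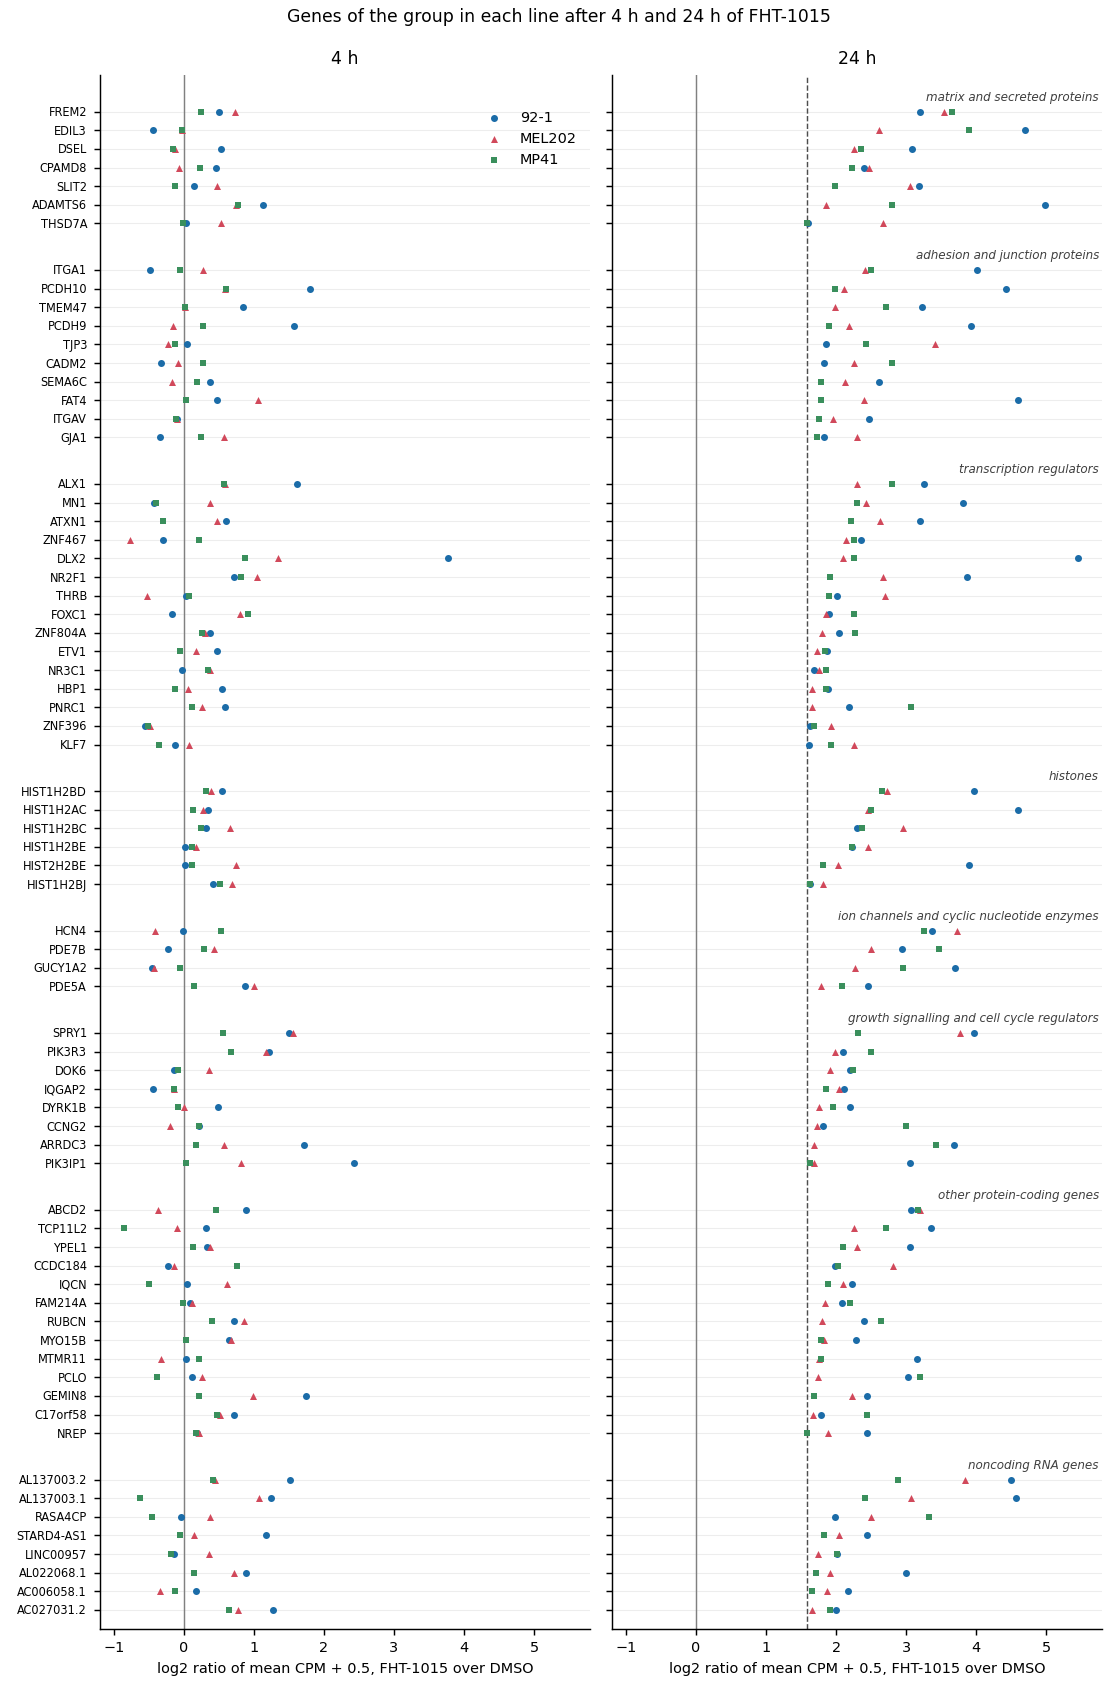
Log2 ratios of mean CPM plus 0.5, FHT-1015 over DMSO, for 71 of the 73 genes (rows, grouped by role) at 4 h (left) and 24 h (right). Each point is a line, the dashed line marks the threshold of 1.58, and most 4 h points lie near 0, with DLX2 in 92-1 farthest at 3.77, while every 24 h point lies at or beyond the threshold, as the rule required.

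With 0.5 CPM added, FREM2 had the second largest smallest ratio of the group, behind HCN4. The rank depends on that constant, which lowers most the ratios of genes that are low in DMSO. In 92-1 it stood at 6.97, 4.32 and 5.37 CPM in the 3 DMSO libraries at 24 h and at 54.9, 52.4 and 56.7 CPM with FHT-1015. In MEL202 the levels were 10.2, 25.7 and 15.6 CPM against 218.2, 188.8 and 207.3 CPM. In MP41 they were 57.6, 46.2 and 41 CPM against 746.9, 498.3 and 601.2 CPM. The drug libraries were all higher and no groups overlapped, and MP41 in DMSO had about the level that 92-1 reached with the drug. The log2 ratios were 3.19, 3.54 and 3.66, which is 9.12-fold to 12.6-fold. At 4 h the groups overlapped in MEL202 (9.77, 20.9 and 7.18 CPM in DMSO against 15.2, 33.6 and 15) and in MP41 (66.7, 57.7 and 70.9 against 48.1, 82.6 and 99.8). In 92-1 at 4 h they did not overlap (4.99, 4.86 and 5.84 CPM in DMSO against 8.66, 7.72 and 6.42, log2 ratio 0.50).

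**Figure D2:**
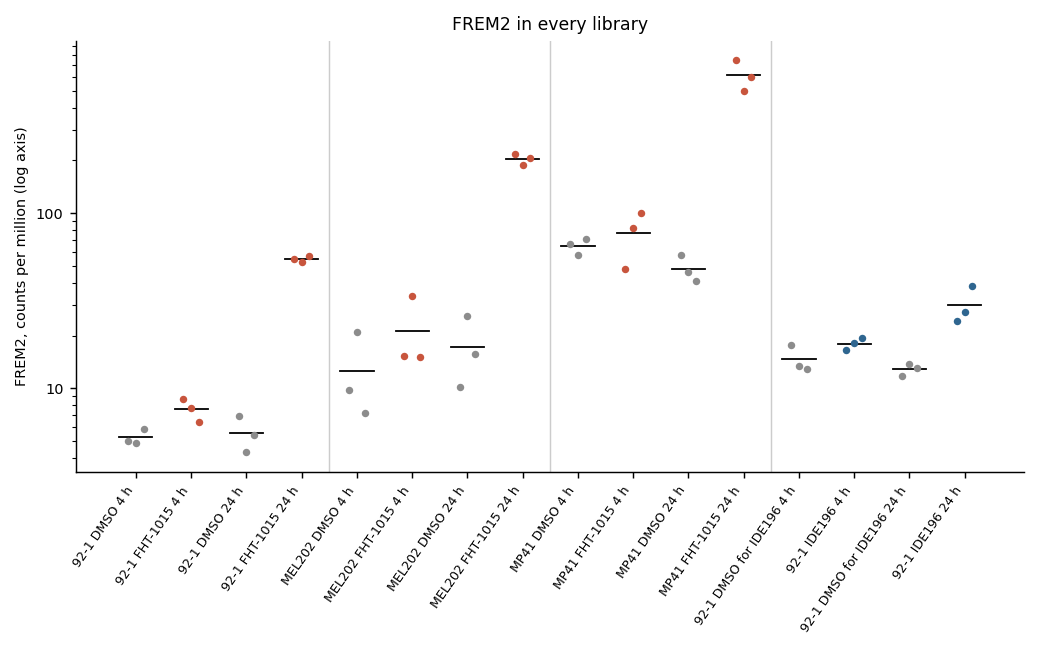
FREM2 in CPM on a log axis in each of the 48 libraries, by line, drug and time. Points are libraries (grey DMSO, red FHT-1015, blue IDE196) and bars are group means; the 24 h FHT-1015 groups stand above all others of their line, and the 24 h IDE196 libraries, at 24.1 to 38.6 CPM, lie above their DMSO at 11.7 to 13.8 CPM.

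Few partners of FREM2 were high enough to test. Of 9 genes of the Fraser complex and its partners FREM2 was the one member. FRAS1, which needs FREM2 at the basement membrane, was high enough to test in 92-1 alone and was not called at 24 h (log2 fold change 0.23, SE 0.30, edgeR adjusted p = 0.526). At 4 h it was lower by that test, at -0.84 (SE 0.29). FREM1 fell in MP41 at 24 h by 1.97 on the log2 scale (adjusted p = 0.000958) and was not called in MEL202 (-1.25). GRIP1, an intracellular scaffold that carries the FRAS1 and FREM2 proteins to the cell surface, rose in MP41 by 1.02 (SE 0.20, adjusted p = 0.00159) and was not called in 92-1 (0.18) or MEL202 (0.64). GRIP2 was not called in MEL202 (0.79) or MP41 (0.40), and the difference of these genes from FREM2 was not tested.

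The other members placed under the role of matrix and secreted proteins were EDIL3, ADAMTS6, THSD7A, CPAMD8, SLIT2 and DSEL. The role is broad and does not mean that each is secreted. EDIL3 (ENSG00000164176.13, chromosome 5, 83940554 to 84384793, minus strand), a secreted integrin ligand, was nearly silent in 92-1 in DMSO at 24 h, with 0.353, 1.06 and 0.671 CPM. With FHT-1015 it stood at 31.2, 29.6 and 30.9 CPM, and in MEL202 at 79.2, 66.5 and 64.6 CPM against 9.47, 12.1 and 11.5. In MP41 it was at 58.1, 56.2 and 52.8 CPM against 3.45, 1.37 and 4.98. All drug libraries were higher, and 92-1 and MP41 started lower than MEL202. ADAMTS6, a secreted metalloprotease, had the second largest spread of ratios between lines, 4.98 in 92-1 against 1.86 in MEL202 and 2.80 in MP41. SLIT2, the guidance ligand of ROBO receptors, had ratios of 3.18, 3.05 and 1.99, and DSEL, an epimerase of dermatan sulfate, 3.08, 2.26 and 2.36. Among 115 to 125 other genes for matrix proteins and their enzymes, 32.2%, 12% and 16.5% were called higher at 24 h in 92-1, MEL202 and MP41, and 38.3%, 15.2% and 29.8% lower, with medians between -0.10 and -0.02.

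Among the 10 adhesion and junction genes, ITGA1, a collagen-binding integrin subunit (ENSG00000213949.9, chromosome 5, 52787896 to 52959210, plus strand), had 3.66, 2.13 and 2.87 CPM in DMSO and 48.7, 54.4 and 58.9 CPM with FHT-1015 at 24 h in 92-1. In MEL202 it had 43.6, 117.4 and 103.9 against 442.1, 459.3 and 513.5 CPM, and in MP41 26.8, 7.72 and 34.3 against 129.1, 112.4 and 152.5 CPM. The DMSO libraries of MEL202 and MP41 differed widely among themselves, yet none reached a drug library. ITGAV, the integrin subunit shared by several fibronectin and vitronectin receptors, was the most abundant member. It had 671.6, 644.4 and 751.9 CPM with the drug in 92-1 against 136.1, 111.8 and 124.3 in DMSO, and its ratios were 2.47, 1.95 and 1.75. FAT4, a giant cadherin, had ratios of 4.60, 2.39 and 1.78 in 92-1, MEL202 and MP41, and the protocadherin PCDH10 of 4.42, 2.11 and 1.99. CADM2, a synaptic adhesion molecule, had its largest ratio in MP41 (2.80), and the tight junction scaffold TJP3 in MEL202 (3.41). GJA1, the gap junction protein connexin 43, shows how far the starting levels could lie apart. It had at most 0.488 CPM in DMSO at 24 h in 92-1 and 27.6 to 69.7 CPM in the other lines, with ratios of 1.83, 2.30 and 1.72. In the list of other cadherins, protocadherins and adhesion proteins, 47.9% of 94 genes were called higher at 24 h in 92-1, 15.4% of 117 in MEL202 and 20.9% of 91 in MP41, and 16%, 5.98% and 16.5% lower. The shares of all genes called are given above.

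There were 16 transcription regulators. ALX1 (ENSG00000180318.4, chromosome 12, 85280107 to 85301784, plus strand), a homeobox factor of the cranial neural crest, had 39.5, 35.3 and 36.5 CPM in DMSO at 24 h in 92-1 and 395.1, 357.4 and 323.9 CPM with FHT-1015. In MEL202 it had 46.1, 38 and 54.1 against 219.6, 225.9 and 234.8, and in MP41 15.4, 14.4 and 19.3 against 109.4, 121.9 and 118.3. Replicates agreed closely and the groups lay far apart. DLX2, another homeobox factor of the neural crest and forebrain, had the largest spread between lines, 5.45 in 92-1 against 2.09 in MEL202 and 2.26 in MP41. Its DMSO level in 92-1 was 0.376 to 0.549 CPM and in MEL202 32.6 to 42.7 CPM, while the drug libraries had 37.3 to 46.9 and 151.9 to 160.3 CPM. The spread was smallest for ABCD2 (0.13), a peroxisomal fatty acid transporter, followed by ETV1 (0.15), an ETS factor, and NR3C1 (0.18), the glucocorticoid receptor. ABCD2 had mean DMSO levels of 0.622 CPM in 92-1 and 1.28 CPM in MP41 at 24 h, so its ratios and its rank depend on the 0.5 CPM added. Other nuclear receptors of the group were THRB, for thyroid hormone, with ratios of 2.01, 2.70 and 1.90, and NR2F1, an orphan receptor, with 3.87, 2.67 and 1.91. Of the other transcription factors listed by family name, 36% of 344 were called higher in 92-1, 16.9% of 356 in MEL202 and 23.7% of 338 in MP41, and 29.9%, 12.1% and 22.5% lower. Of other genes named ZNF, 49.8% of 474, 7.37% of 475 and 27.6% of 474 were called higher and 13.1%, 2.11% and 5.27% lower.

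The 6 histone genes encode replication-type H2A and H2B proteins, whose messages normally end in a stem-loop without a poly(A) tail. The libraries were made from poly(A) RNA. HIST1H2AC (ENSG00000180573.9, chromosome 6, 26124145 to 26139116, plus strand), whose promoter is shown above, had 2.69, 3.94 and 4.27 CPM in DMSO at 24 h in 92-1 and 104.7, 95.1 and 98.5 CPM with FHT-1015. In MEL202 it had 21.1, 21.7 and 24.3 against 98.9, 141.1 and 137.1 CPM, and in MP41 33.9, 22.7 and 31 against 143.9, 176.3 and 178.2 CPM. All drug libraries were higher, and 92-1 started from the lowest DMSO level. HIST1H2BD had ratios of 3.96, 2.72 and 2.65, HIST1H2BC 2.30, 2.95 and 2.37, HIST2H2BE 3.89, 2.02 and 1.81, HIST1H2BE 2.22, 2.46 and 2.22 and HIST1H2BJ 1.63, 1.81 and 1.62. These genes have near-identical copies, so the share of reads given to each is uncertain. Of the other histone genes, 17 were called higher and 5 lower of 26 in 92-1 at 24 h, 9 and 2 of 32 in MEL202, and 14 and 4 of 34 in MP41. Of 24 tested in each line, 8 were higher in all 3 (HIST1H1C, HIST1H2AG, HIST1H2AI, HIST1H2BK, HIST1H3E, HIST1H4H, HIST2H2BC and HIST2H2BD). The variant genes H2AFX and H2AFZ were lower in all 3. The share of all genes called in the same direction in all 3 lines was not counted, so the counts over all 3 lines have no background here.

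The channels and cyclic nucleotide enzymes included HCN4, GUCY1A2, PDE5A and PDE7B. HCN4 (ENSG00000138622.4, chromosome 15, 73319859 to 73369264, minus strand), a cyclic nucleotide-gated pacemaker channel, had 0.0441, 0 and 0 CPM in DMSO and 5.73, 4 and 4.77 CPM with FHT-1015 at 24 h in 92-1. In MEL202 it had 0.119, 0.235 and 0.402 against 11.3, 8.92 and 8.2, and in MP41 0.55, 0.515 and 0.176 against 7.92, 10.3 and 6.59. It was thus off or nearly off without the drug in each line, and its ratios (3.37, 3.73 and 3.26) are set largely by the 0.5 CPM added. HCN4, PDE7B, TJP3, RASA4CP and LINC00957 had at most 3 reads in every DMSO library of 92-1 at 24 h. GUCY1A2, a subunit of soluble guanylate cyclase, had 133.3, 109.2 and 129.5 CPM with the drug in 92-1 against 10.1, 7.2 and 10.1. PDE5A, which degrades cyclic GMP, had ratios of 2.46, 1.78 and 2.08. Of other ion channel genes, 30.3% of 122, 17.2% of 128 and 16.2% of 142 were called higher in 92-1, MEL202 and MP41, and 30.3%, 14.8% and 28.9% lower.

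Several members restrain growth signalling or the cell cycle. SPRY1 (ENSG00000164056.11, chromosome 4, 123396795 to 123403760, plus strand), an inhibitor of receptor tyrosine kinase signalling to ERK, had 2.34, 4.76 and 6.65 CPM in DMSO at 24 h in 92-1 and 50, 81.2 and 105.6 CPM with FHT-1015. It had 4.75, 2.58 and 4.46 against 62.4, 59 and 58.3 CPM in MEL202, and 19, 16.6 and 17.8 against 97.3, 84.3 and 88.3 CPM in MP41. With the drug, 92-1 overlapped both other lines while MEL202 lay below MP41, and in DMSO MP41 was the highest. CCNG2, an unconventional cyclin tied to cell cycle exit, had ratios of 1.81, 1.73 and 2.99, and PIK3IP1, an inhibitor of PI3 kinase, 3.05, 1.69 and 1.62. PIK3R3, a regulatory subunit of PI3 kinase, had 2.09, 1.99 and 2.49, and ARRDC3, an arrestin-domain protein, 3.68, 1.68 and 3.42. Of 51 to 52 other cyclins, cyclin-dependent kinases and inhibitors, 41.2%, 17.3% and 21.2% were called lower in 92-1, MEL202 and MP41 and 19.6%, 5.77% and 17.3% higher.

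Some members were neighbours on a chromosome, which was counted and not tested. Chromosome 6 held 13 of the 73 (17.8%) against 5.07% of the 13677 genes tested in each line, and chromosome 5 held 10 (13.7%) against 4.5%. On chromosome 6, 5 of the 13 are histone genes. Another 3 form a cluster: ATXN1, a transcriptional corepressor (chromosome 6, 16299112 to 16761491, minus strand), and the noncoding AL137003.1 and AL137003.2 on the other strand at its start. AL137003.2 had ratios of 4.50, 3.84 and 2.88, AL137003.1 4.56, 3.07 and 2.41, and ATXN1 3.20, 2.62 and 2.21, in the same order of lines. The selection used these ratios, and 92-1 had the largest for 42 of the 73 members, so the shared order is a description only. Reads were counted without strand, and those falling where ATXN1 and AL137003.1 overlap entered neither count. The same holds for RASA4CP with LINC00957 and for STARD4-AS1 with NREP. In all, 44 of the 73 overlap an annotated gene on the opposite strand. Protein-coding members were longer than other tested protein-coding genes, with a median span of 53222 against 34127 bases, and had a lower GC content (43.8% against 48%).

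At 4 h the ratios were smaller. The median log2 ratio was 0.34 in 92-1 (-0.56 to 3.77), 0.36 in MEL202 (-0.77 to 1.56) and 0.13 in MP41 (-0.86 to 0.92), and 53, 52 and 47 of the 73 were above 0. In 92-1 the lower end was set by the rule, and 14 genes had a ratio of at least 1. Of all genes in 92-1 at 4 h, 12.9% were called higher and 16.7% lower, and all drug replicates lay above all DMSO replicates for 23.5%. The largest were DLX2 (3.77), PIK3IP1 (2.43), PCDH10 (1.80), GEMIN8 (1.75), a subunit of the SMN complex, and ARRDC3 (1.71). PIK3IP1 was the one of these with a smaller mean at 24 h than at 4 h: 16.8, 16.9 and 17.2 CPM at 4 h and 13.7, 12.2 and 11.6 CPM at 24 h. Its DMSO levels also differed, with 1.93, 2.46 and 3.86 CPM at 4 h and 0.838, 1.38 and 0.976 CPM at 24 h. The smallest 4 h ratios in 92-1 were those of ZNF396 (-0.56), ITGA1 (-0.48), GUCY1A2 (-0.46), EDIL3 (-0.44) and IQGAP2 (-0.44).

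MEL202 and MP41 at 4 h are samples the selection did not use, so they could be tested. The fits also hold the 24 h libraries, which enter the filter on low counts and the estimate of the spread, and 6 members in MEL202 and 5 in MP41 passed the filter only through the 24 h FHT-1015 libraries. In MEL202, edgeR's quasi-likelihood test called 3 members higher and 0 lower, where 0.157% of 15913 genes were called higher and 0.522% lower (0.679% in all). The 3 were SPRY1, DLX2 and PIK3R3. SPRY1 had 2.77, 3.08 and 4.23 CPM in DMSO and 13.8, 7.19 and 11.6 CPM with FHT-1015 at 4 h, and the groups did not overlap (log2 fold change 1.63, SE 0.29, edgeR adjusted p = 0.0212). DLX2 had 35.5, 33 and 29 against 65.8, 115.8 and 66.8 CPM (1.29, SE 0.24, adjusted p = 0.0212). PIK3R3 had 11.5, 14 and 11.5 against 30.8, 27.3 and 27.9 CPM (1.16, SE 0.19, adjusted p = 0.0154). Each was higher in all 3 drug libraries. NR2F1 narrowly missed the threshold (1.06, adjusted p = 0.0519). In a fit of the 6 samples alone none of the 3 was called (adjusted p between 0.403 and 0.436), and with 1 library of the 4 h groups left out fewer of the 3 were called. PIK3R3 alone stayed without DMSO replicate 1 or 2 (without the latter PDE5A was called as well), PIK3R3 and SPRY1 without DMSO replicate 3, and DLX2 alone without FHT-1015 replicate 1 or 3. FHT-1015 replicate 2 at 4 h, which has the 115.8 CPM of DLX2, had the fewest genes detected of all libraries (17592), and without it all 3 were called. Without the 6 members, and over genes held to the same condition, 3 of 67 members were called higher, where 0.163% of genes were. Of these 67, 17 had an unadjusted p under 0.05, where 8.59% of genes did (8.58% of all tested), and all drug replicates lay above all DMSO replicates for 14, where that held for 5.51% of genes (5.43% of all tested).

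In MP41 at 4 h, 1 member was called higher and 0 lower, where 0.0708% of 15543 genes were called higher and 0.154% lower (0.225% in all). It was FOXC1 (ENSG00000054598.8, chromosome 6, 1609972 to 1613897, plus strand), a forkhead factor of the eye's anterior segment. FOXC1 had 44.6, 33.4 and 48.2 CPM in DMSO and 89.2, 65.3 and 85.5 CPM with FHT-1015, without overlap (log2 fold change 0.93, SE 0.16, edgeR adjusted p = 0.0335). With 1 library omitted at a time, 9 of 12 fits no longer called it (log2 fold change 0.79 to 1.05), those without any 1 of the 4 h DMSO or 24 h FHT-1015 libraries, DMSO replicate 1 at 24 h, or FHT-1015 replicate 1 or 3 at 4 h. The 3 genes called in MEL202 were higher in all drug replicates in MP41 as well but missed the threshold: DLX2 at 0.89 (adjusted p = 0.0982), PIK3R3 at 0.69 (0.106) and SPRY1 at 0.58 (0.246). Without the 5 members that passed the filter only through the 24 h drug libraries, the unadjusted p was under 0.05 for 14 of 68, where it was for 5.83% of genes held to the same condition (5.78% of all tested). All drug replicates lay above all DMSO replicates for 18 of the 68, where that held for 9.85% of genes (9.69% of all tested).

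The 4 h effect was compared between MEL202 and MP41 in a joint fit of their 24 samples. Of 17478 genes, 1 was called (0.00572%), and none of the members was. For 8 members the unadjusted p was under 0.05, where it was for 4.58% of genes, and SPRY1 (1.04 higher in MEL202, SE 0.33) and FAT4 (1.04, SE 0.45) were among the 8. DESeq2 and limma-voom also called 0 members.

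IDE196 in 92-1 gave a second test on libraries the selection had not used, and its DMSO libraries were its own. At 4 h, 69 of the 73 were high enough to test. Of these 19 rose and 3 fell, where 6.89% of 15437 genes rose and 9.3% fell (16.2% in all). At 24 h, 46 rose, 8 fell and 15 were not called, where 28.7% of genes rose and 29.4% fell (58.1% in all). HCN4, PDE7B, RASA4CP and GJA1 were too low to test. A further 7 of the 69 passed the filter on low counts only because of the IDE196 24 h libraries themselves (AL137003.1, CADM2, CPAMD8, HIST1H2BE, IQCN, LINC00957 and THSD7A). Among the other 62, 40 rose (64.5%) and 8 fell (12.9%), and among genes held to the same condition 27.8% rose and 30.8% fell. All 3 IDE196 libraries lay above all 3 DMSO libraries for 50 of the 69, where that held for 34.6% of genes, and for 44 of the 62, where it held for 33.4%. At 4 h it held for 23 members and 14.1% of genes. The median log2 fold change at 24 h was 1.11 over the 62 and -0.00 over genes held to the same condition. Between 43 and 47 members rose, and 7 to 9 fell, under every alternative and with any 1 library left out. The summed level of the melanocyte lineage genes was 23214.4 to 26000.2 CPM against 19072.2 to 21433.2 in DMSO, and SOX10 rose by 0.67 (SE 0.08, adjusted p = 1.22e-06). Other marker sums differed too, with neuron and glia markers at 1341.6 to 1472.6 against 361.4 to 377.0 CPM, epithelial markers at 171.5 to 183.5 against 43.8 to 66.2 CPM, fibroblast markers at 12.8 to 23.6 against 7.81 to 12.1 CPM, and endothelial markers lower, at 14.2 to 15.4 against 66 to 78.9 CPM. Their part in these results was not tested.

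By role, and leaving out the 7 genes that passed the filter only through the IDE196 24 h libraries, 5 of 5 histone genes rose at 24 h of IDE196, as did 4 of 5 matrix genes, 5 of 8 adhesion genes, 11 of 16 transcription regulators, 5 of 8 growth regulators, 7 of 12 other protein-coding genes, 2 of 5 noncoding genes and 1 of 3 channel genes. Falls were called for 4 transcription regulators, 2 growth regulators, 1 adhesion gene and 1 matrix gene, and of all genes held to the same condition 27.8% rose and 30.8% fell. Other genes of the fixed lists were counted without that condition. Of 120 matrix genes 43.3% rose and 19.2% fell, and of 97 adhesion genes 36.1% and 14.4%. Of 347 transcription factors by family name 36% rose and 25.4% fell, of 470 genes named ZNF 42.8% and 16%, and of 119 ion channel genes 31.1% and 26.9%. HIST1H2AC had 5.6, 6.02 and 8.1 CPM in DMSO and 40.6, 37.4 and 31.1 CPM with IDE196 (2.43, SE 0.18, edgeR adjusted p = 5.92e-09). It had already risen at 4 h, from 4.32, 5.14 and 5.87 to 6.83, 7.71 and 10.7 CPM (0.71, adjusted p = 0.0177), a call lost without DMSO replicate 4 or IDE196 replicate 3 at 4 h. For HIST1H2BJ the call at 24 h (1.71, adjusted p = 0.0145) was lost without the low-count filter (0.052) and without DMSO replicate 6 or IDE196 replicate 3. Of 27 other histone genes, 9 rose and 8 fell at 24 h, with a median of 0.34.

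**Figure D3:**
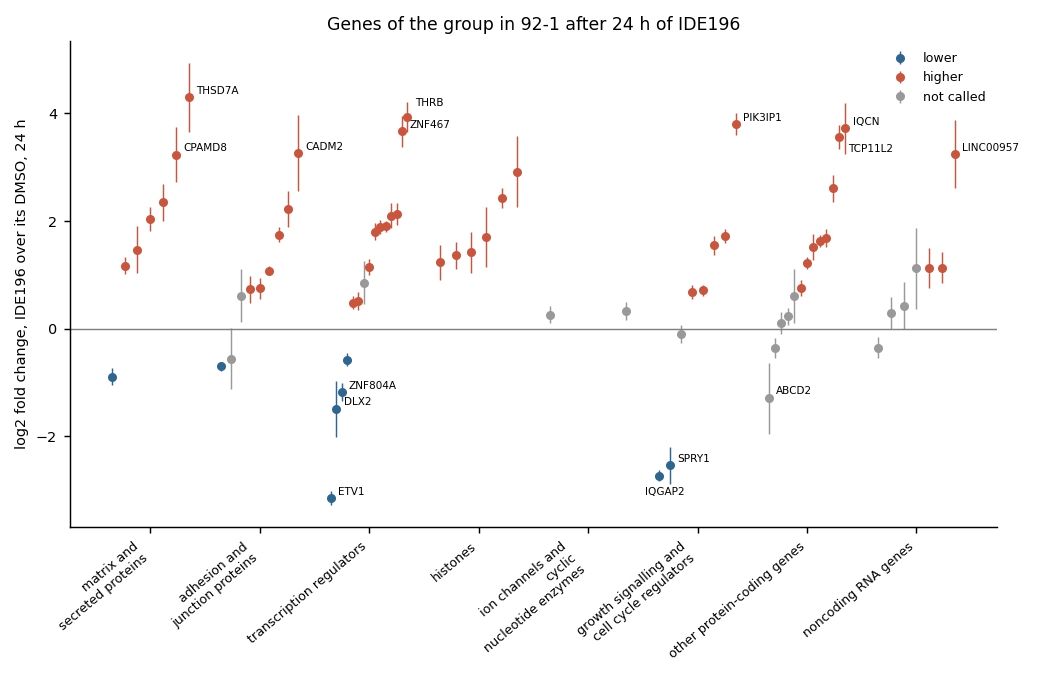
Log2 fold change and its standard error (bars, derived from the test's F statistic) for 67 of the 69 tested genes in 92-1 after 24 h of IDE196 against its own DMSO, by role. Red genes rose and blue genes fell in edgeR's test at an adjusted p under 0.05, grey genes were not called, and genes beyond 3 or below -1 are named; ETV1, IQGAP2 and SPRY1 lie lowest.

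The rises that came early with IDE196 were led by PIK3IP1. It had 1.38, 2 and 1.88 CPM in DMSO and 6.58, 6.16 and 8.86 CPM with IDE196 at 4 h (log2 fold change 2.02, SE 0.21, edgeR adjusted p = 2.51e-06). At 24 h it had 1.91, 1.39 and 2.47 against 27.8, 28.3 and 27 CPM (3.80, SE 0.20, adjusted p = 7.7e-11). No groups overlapped at either time. MN1, a transcriptional coactivator, rose at 4 h (1.98, SE 0.37, adjusted p = 0.000966) and was not called at 24 h (0.85, adjusted p = 0.0794). TCP11L2 rose by 1.75 at 4 h and 3.56 at 24 h, and IQCN by 1.96 and 3.72. The 4 h call for IQCN was lost without DMSO replicate 5 or IDE196 replicate 1, and it is one of the genes that passed the filter only through the IDE196 24 h libraries. The zinc finger gene ZNF467 rose by 1.47 and 3.67.

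CCNG2 and HBP1, a transcriptional repressor of cell cycle genes, reached most of their change by 4 h. CCNG2 had 25.8, 24.4 and 29.4 CPM in DMSO and 77.4, 65 and 76.9 CPM with IDE196 at 4 h, and at 24 h 80.1, 80.8 and 83 CPM. Its log2 fold changes with IDE196 were 1.46 (SE 0.12) and 1.73 (SE 0.13, adjusted p = 4.06e-09), and the difference between them was not called (adjusted p = 0.273). HBP1 had 17.3, 16.3 and 16.9 against 51.6, 39.1 and 42.5 CPM at 4 h (1.40, adjusted p = 9.67e-08). Its levels at 24 h were 16, 18.3 and 19 CPM in DMSO and 67.6, 70.2 and 66.5 CPM with the drug (1.90, adjusted p = 1.97e-10), a larger effect than at 4 h by 0.50 (adjusted p = 0.0162), a call lost without DMSO replicate 4 at 24 h or IDE196 replicate 2 at 4 h. NR3C1 rose by 0.92 at 4 h and by 1.89 at 24 h.

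The letters TGTTTAC, a core of forkhead factor sites, were in a promoter window of 7 of the 57 genes (12.3%), against 4.19% of all genes, and in 6.73% against 3.42% counted per window. The 7 were ARRDC3, FAM214A, HBP1, MTMR11, NR3C1, PIK3IP1 and TCP11L2. For 4 of them a stretch before a RefSeq start is printed as an example, with the letters in capitals on either strand. The stretches are chr5:91380098-91380148 (minus), chr7:107168808-107168858 (plus), chr1:149936374-149936405 (minus) and chr12:106302483-106302529 (plus), in the order printed. Those of ARRDC3, MTMR11 and TCP11L2 lie inside the span that GENCODE gives the gene, so the RefSeq start used is not its outermost one.
ARRDC3: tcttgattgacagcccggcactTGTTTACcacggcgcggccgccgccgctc
HBP1: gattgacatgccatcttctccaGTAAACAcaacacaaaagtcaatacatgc
MTMR11: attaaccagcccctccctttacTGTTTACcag
TCP11L2: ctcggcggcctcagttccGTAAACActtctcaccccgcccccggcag

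FAM214A (0.83 at 4 h and 1.63 at 24 h), HBP1, NR3C1, PIK3IP1 and TCP11L2 rose with IDE196 at both times, MTMR11 rose at 24 h (1.69, SE 0.17) and not at 4 h (0.24), and ARRDC3 was not called at either (0.24 at 4 h and -0.10 at 24 h). ARRDC3 had 30, 43.8 and 45.8 CPM in DMSO and 31.9, 36.7 and 46.9 CPM with IDE196 at 24 h, in overlapping groups. A match of these letters says nothing of which factor binds.

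Further rises with IDE196 were measured at 24 h. THRB had 0.912, 0.788 and 0.52 CPM in DMSO and 8.18, 12.8 and 14.2 CPM with IDE196 (log2 fold change 3.93, SE 0.28, edgeR adjusted p = 2.83e-09). At 4 h it had risen by 1.03 (SE 0.29, adjusted p = 0.0206), a call that limma-voom did not make (0.0921) and that was lost without DMSO replicate 5 or 6 or IDE196 replicate 2 or 3. KLF7, a Krüppel-like factor, rose by 2.13 (SE 0.20). EDIL3 had 0.825, 0.973 and 0.78 against 3.87, 4.61 and 5.21 CPM (2.35, SE 0.34, adjusted p = 1.21e-05). FAT4 rose by 2.22, DSEL by 2.04, NR2F1 by 1.14 and ITGA1 by 0.73 (adjusted p = 0.0162), the last a call lost without DMSO replicate 6 or IDE196 replicate 2. THSD7A had the largest fold change (4.30, SE 0.64, adjusted p = 1.8e-05), from 0.0434, 0.0926 and 0.13 to 1.35, 1.46 and 2.97 CPM, levels too low for the size to be precise. It passed the filter on low counts only through these IDE196 libraries, so its test and its rank depend on the group where it is high.

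PNRC1, a nuclear receptor coactivator, had 17.5, 22.6 and 30.5 CPM in DMSO and 89.6, 82.1 and 80.9 CPM with IDE196 at 24 h (log2 fold change 1.80, SE 0.16, edgeR adjusted p = 4.23e-08), and had risen by 1.33 at 4 h (adjusted p = 1.74e-05). DYRK1B, a kinase tied to quiescence, had 17.6, 25.6 and 31.1 CPM in DMSO against 70.3, 76.2 and 78 CPM at 24 h (1.55, adjusted p = 7.91e-07), and rose by 1.11 at 4 h (adjusted p = 0.000225). TMEM47, a junction protein, went from 120.3, 125.5 and 124.3 to 271, 262 and 276 CPM at 24 h (1.08, adjusted p = 3.85e-09), and YPEL1 rose by 1.52. In each of these the IDE196 libraries lay above all their DMSO libraries. The unconventional myosin gene MYO15B rose late, from 1.56, 3.61 and 3.03 to 17.1, 17.5 and 17.2 CPM (2.61, SE 0.25, adjusted p = 1.08e-07), after 0.37 at 4 h (adjusted p = 0.43). SEMA6C, a semaphorin, rose by 0.49 at 4 h and 1.75 at 24 h, while DOK6 (0.69), the protocadherin PCDH9 (0.75) and the noncoding gene AL022068.1 (1.12, adjusted p = 0.0152) were called at 24 h alone. The 4 h call for SEMA6C (adjusted p = 0.0289) was lost with only the 6 samples compared (0.0595) and without DMSO replicate 4 or 6 or IDE196 replicate 1 or 3, and that for AL022068.1 at 24 h without DMSO replicate 5 or 6 or IDE196 replicate 1.

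Among those not called at 24 h of IDE196, PCLO and RUBCN are given beside their FHT-1015 values, which the selection fixed. PCLO, a scaffold protein of the presynaptic terminal, had 27.3, 30.2 and 36.6 CPM in DMSO at 24 h in 92-1 and 238.9, 258.1 and 278.8 CPM with FHT-1015. Under IDE196 it had 26.6, 31.6 and 29.2 CPM in DMSO and 28, 33.1 and 45.3 CPM with the drug, which overlapped (0.23, SE 0.16, edgeR adjusted p = 0.217). RUBCN, a regulator of autophagy, had 16.3, 18 and 15.3 CPM in DMSO against 80.5, 89.5 and 97.9 CPM with FHT-1015, and 22.2, 22.1 and 23 against 19.4, 22.7 and 33.2 CPM with IDE196 (0.11, SE 0.20, adjusted p = 0.666). Also not called were CCDC184 (0.61, adjusted p = 0.314), C17orf58 (-0.36, adjusted p = 0.107) and the noncoding genes AC006058.1 (0.29, adjusted p = 0.406) and AC027031.2 (-0.35, adjusted p = 0.111). The smallest ratios of these 4 at 24 h of FHT-1015 over the 3 lines were 1.99, 1.67, 1.66 and 1.66.

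FREM2 rose with IDE196 at 24 h as well. It had 11.7, 13.8 and 13.1 CPM in DMSO and 24.1, 27.3 and 38.6 CPM with IDE196, without overlap (log2 fold change 1.17, SE 0.16, edgeR adjusted p = 5.46e-06). At 4 h the groups overlapped (17.6, 13.4 and 12.9 against 16.5, 18.2 and 19.4 CPM), and the effect at 24 h exceeded that at 4 h by 0.88 (SE 0.22, adjusted p = 0.00605). FRAS1 also rose under IDE196 at 24 h (1.71, SE 0.22, adjusted p = 4.16e-06). The DMSO level of FREM2 in 92-1 was higher in the IDE196 experiment than in that of FHT-1015 (4.32 to 6.97 CPM at 24 h), so levels under a drug are set only against that drug's own DMSO.

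A few members went the other way under IDE196. ETV1 (ENSG00000006468.14, chromosome 7, 13891228 to 13991425, minus strand) had 42.8, 48 and 49.2 CPM in DMSO and 6.18, 5.34 and 4.65 CPM with IDE196 at 24 h (log2 fold change -3.15, SE 0.13, edgeR adjusted p = 5.17e-12). With FHT-1015 at 24 h it had 163.5, 163.9 and 184.5 CPM against 47.6, 43 and 48.2 in DMSO. It had fallen by 0.92 at 4 h of IDE196 (SE 0.11). IQGAP2, a scaffold protein of the actin cytoskeleton, had 72.9, 83 and 76 CPM in DMSO and 11.9, 11.5 and 12.7 CPM with IDE196 at 24 h (-2.73, SE 0.10, adjusted p = 2.76e-12), and was not called at 4 h (-0.12). SPRY1 had 4.08, 7.83 and 9.01 against 1.52, 1.21 and 0.897 CPM at 24 h (-2.54, SE 0.34, adjusted p = 6.03e-06) and 4.41, 4.95 and 6.08 against 1.4, 0.5 and 1.54 CPM at 4 h (-2.16, SE 0.35, adjusted p = 0.000291). ETV1 and SPRY1 are known outputs of ERK signalling. None of the 3 overlapped with its DMSO at 24 h.

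The other 5 that fell at 24 h were DLX2, ZNF804A, SLIT2, ITGAV and ALX1. DLX2 was near the limit of counting, with 0.912, 1.07 and 0.563 CPM in DMSO and 0.435, 0.0971 and 0.392 with IDE196 (-1.49, SE 0.52, edgeR adjusted p = 0.0212), a call lost without DMSO replicate 4 or 5 or IDE196 replicate 2. ITGAV had 189.8, 184.8 and 179.3 against 117.1, 117 and 119 CPM (-0.70, SE 0.08, adjusted p = 7.75e-07), and ALX1 21.8, 22.1 and 25 against 14.8, 16.6 and 16.3 CPM (-0.58, SE 0.12, adjusted p = 0.000603). SLIT2 fell by 0.89 (SE 0.15) and ZNF804A by 1.18 (SE 0.17). Neither GUCY1A2 (0.33, adjusted p = 0.101) nor PDE5A (0.26, adjusted p = 0.176) nor PCDH10 (0.61, adjusted p = 0.31) passed the test, and ABCD2 did not either (-1.29, SE 0.66, adjusted p = 0.102).

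**Figure D4:**
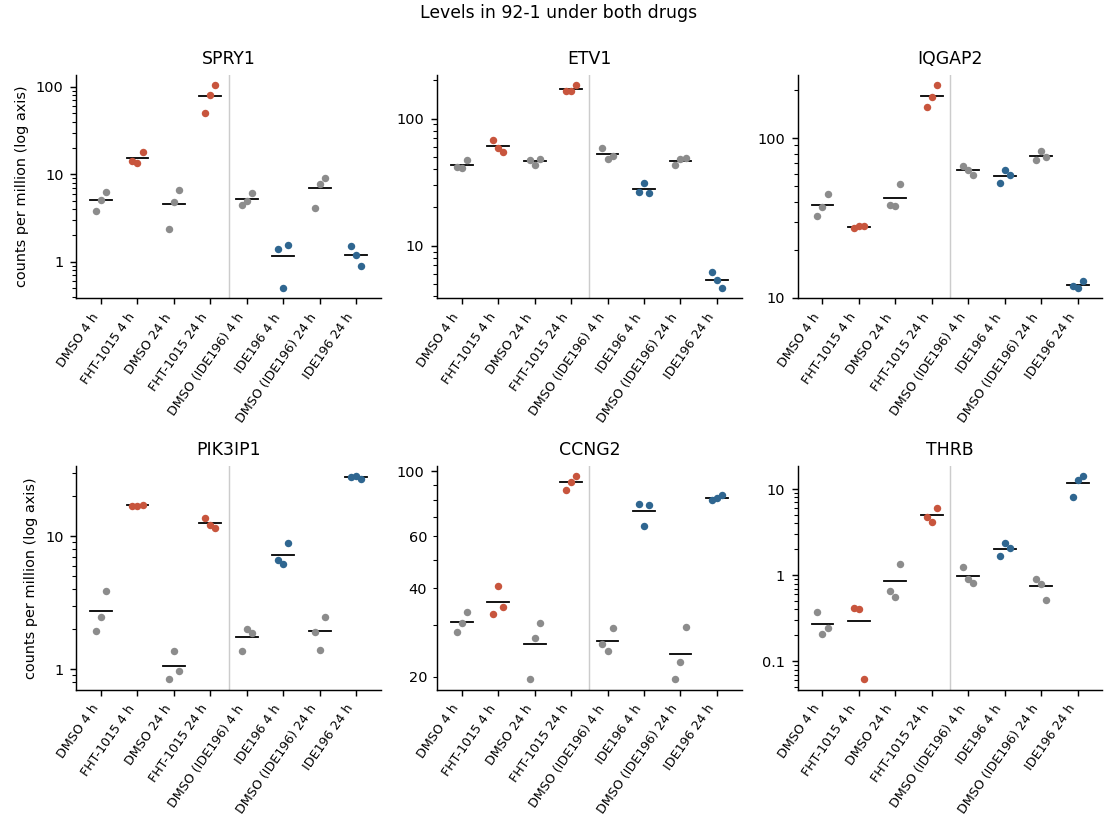
CPM on log axes in 92-1 for 6 members, with the FHT-1015 experiment left and the IDE196 experiment right of the grey line in each panel (points are libraries, bars group means). SPRY1, ETV1 and IQGAP2 are high at 24 h with FHT-1015 and low with IDE196, while PIK3IP1, CCNG2 and THRB are high with both.

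FOXC1 changed direction over time under IDE196. It had 17.3, 15.7 and 14 CPM in DMSO against 10.9, 9.61 and 10.8 CPM with IDE196 after 4 h, a log2 fold change of -0.59 (edgeR adjusted p = 0.00219). After 24 h it had 12.5, 11.3 and 14.6 CPM in DMSO against 17.1, 18.9 and 19.1 CPM, a log2 fold change of 0.48 (adjusted p = 0.00212). Across the 69 members tested, the effect at 24 h was larger than that at 4 h for 28 and smaller for 5, where 13.5% of genes were called larger and 17.2% smaller (30.7% in all). Without the 7 genes that passed the filter only through the IDE196 24 h libraries it was larger for 25 and smaller for 5 of 62, with a median difference of 0.51, and of -0.01 over genes held to the same condition.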

How the data were processed

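RNA from 48 samples was measured by poly(A)-selected sequencing. Deposited values are whole-number read counts per gene made by the authors, with hg38 and limma named per the submitters' processing notes; the aligner is not given in the sources used here. The unstranded column was used, which drops reads shared by overlapping genes. Of the counted reads, 13.72% to 18.93% fell outside genes or were ambiguous, and 92 spike-in rows held 0 reads. Symbols came from GENCODE (58597) or a table of gene names (265).

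Counts were scaled to CPM over gene rows. Tests used edgeR 4.0.16 (R 4.3.3), quasi-likelihood, TMM scaling and filterByExpr, with Benjamini-Hochberg adjustment over all genes tested at 0.05, in fits of the 12 samples of an experiment, or 24 for MEL202 against MP41. Nothing the selection used (FHT-1015 at 24 h in every line, and at 4 h in 92-1) was tested for the members. DESeq2 1.42.0, limma-voom 3.58.1, other scalings, no filter, the summed stranded columns, only the samples compared and left-out libraries were alternatives. The code was tested on simulated data with 200 genes changed. Of 18 same-numbered FHT-1015 and DMSO pairs, 7 had deviations correlated above 0.1 (from -0.322 to 0.508). No count that would show pairing was set, and the labels do not say that equal numbers are pairs. The main fits did not use the numbers as pairs, and a replicate block was an alternative.

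Members and gene lists were chosen with earlier results of these data known. Named members followed a fixed rule: the largest smallest ratio, extremes of each contrast and of the spread between lines, the threshold, and up to 4 for each list. Members named outside it were chosen after their values were seen: HIST1H2BJ, HIST2H2BE, GJA1, TJP3, MTMR11, FAM214A, CPAMD8, RASA4CP, PDE5A, CCDC184, TMEM47, DOK6, RUBCN, MYO15B, DYRK1B, PCLO, AL022068.1, C17orf58 and PNRC1. Values of 2 members are not reported here.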

Additional observations from a re-analysis of the deposited data

Results flagged for a closer look

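The IDE196 effect in 92-1 was larger at 24 h than at 4 h for 28 of 69 members and smaller for 5, by the interaction term of edgeR's quasi-likelihood test. Of all genes, 13.5% were called larger and 17.2% smaller. Without the genes that passed the filter on low counts only through the IDE196 24 h libraries, it was larger for 25 and smaller for 5 of 62 members. Of genes held to the same condition, 13.5% were larger and 17.9% smaller. Of the members called, the 11 that were named for their IDE196 values, or whose difference is given above, are listed here. The difference, 24 h minus 4 h on the log2 scale, was positive for THSD7A (5.05, SE 1.52, edgeR adjusted p = 0.0179), THRB (2.89, SE 0.41, adjusted p = 4.8e-05), ZNF467 (2.21, SE 0.45), TCP11L2 (1.81, SE 0.33), PIK3IP1 (1.77, SE 0.29), FOXC1 (1.07, SE 0.17), FREM2 (0.88, SE 0.22) and HBP1 (0.50, SE 0.15). It was negative for IQGAP2 (-2.62, SE 0.14, adjusted p = 2.25e-09), ETV1 (-2.23, SE 0.17) and ZNF804A (-1.09, SE 0.23). The call for THSD7A was lost without DMSO replicate 4 or 5 at 4 h, its 4 h libraries held almost no reads of the gene, and it passed the filter on low counts only through the IDE196 24 h libraries. FOXC1 is the one of the 11 that fell at 4 h and rose at 24 h.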

How the results depend on the processing

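With 0.1 CPM added in place of 0.5 the rule found 127 genes, 66 of them among the 73, and the other alternatives and left-out libraries gave 54 to 79. In MEL202 at 4 h the count of members called higher, 3, became 7 with DESeq2 and 0 with only the 6 samples compared, where 17 had an unadjusted p under 0.05 in the fit of 12, and lay between 1 and 3 with 1 library left out. All genes called there, 108, became 207 without the filter, 375 with DESeq2 and 0 with only the 6 samples, and 28 to 137 with 1 library left out. In MP41 at 4 h the 1 member called became 2 without the filter, 3 with DESeq2 and 6 with only the 6 samples, and 0 to 3 with 1 library left out; 3 were called without DMSO replicate 2 or 3 at 24 h. All genes called there, 35, became 122, 169 and 346 in the same order, and 7 to 141 with 1 library left out. For MEL202 against MP41, the 1 gene called became 0 by library size alone, 8 without the filter, 13 with DESeq2 and 2 with summed stranded columns, and 0 to 5 with 1 library left out. With a replicate block, 3 members were called in MEL202, 1 in MP41 and 0 between the lines. No paired analysis was possible because the IDE196 and DMSO samples share no replicate numbers. IDE196 counts stayed within 1.5 times. Of 2116 values of called members under alternatives, 2033 kept their call, 83 lost it and 0 reversed. The cause of these shifts was not tested. Depth limits the precision for genes at a few reads per library.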
